A study of Mus musculus with 9 samples.

Results

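The mitochondrially encoded genes are the genes of the small circular genome that mitochondria keep apart from the nuclear chromosomes. The rows of the deposited count table carry Ensembl identifiers, which were given symbols from the GENCODE annotation, and every row whose symbol starts with mt- was taken, 37 of 39179 gene rows. These were 13 protein genes, 2 ribosomal RNA (rRNA) genes and 22 transfer RNA (tRNA) genes. RNA had been sequenced from LSK cells (Lin- Sca1+ cKit+), the sorted bone marrow fraction that holds blood stem cells and early progenitors.

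The 9 libraries fell into 3 groups of C57BL/6 mice. The mutant group had 4 libraries from animals with Mx1-Cre and a conditional knock-in allele that expresses mutant Dnmt3a from its own locus (Dnmt3a+/m). The Cre-negative group had 2 libraries from animals that carried the knock-in allele without Cre, which the design text writes as Dnmt3a+/-. The wild-type group had 3 libraries from Dnmt3a+/+ animals with Mx1-Cre. A library is called by its group and its title number, as in mutant_824. All groups, the Cre-negative one included, were 6 months old and had been given 5 injections of poly(I:C). This RNA mimic of viral infection evokes interferon, which switches on Mx1-Cre in the animals that carry it. Mx1-Cre acts in every cell that answers interferon, not in LSK cells alone, and the Cre-negative and wild-type groups differ in both the Dnmt3a allele and the presence of Cre. The labels do not say whether each library came from a separate animal, so the p-values measure the spread between these samples.

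Mitochondrial DNA is transcribed from both strands into long precursors that cover many genes at once. The tRNAs sit between most of the other genes and are cut out, which frees the rRNAs and the messenger RNAs. The proteins are core subunits of respiratory complexes I, III and IV and of ATP synthase, whose other subunits are encoded in the nucleus, and the rRNAs and tRNAs serve the ribosome that makes them.

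Libraries held 47792306 to 58405879 counts assigned to genes. Levels are given as CPM, counts scaled to a common library size with TMM factors, and 3 counts corresponded to 0.0530 to 0.0632 CPM per library, which is the upper limit that a count of 0 allows for counting error. Kit stood at 369 to 539 CPM and Ly6a, which encodes Sca1, at 27.2 to 44.2 CPM over the 9 libraries, so both markers of the sort were present. Dnmt3a, the targeted gene, stood at 153 to 171 CPM in mutant libraries, at 93.5 and 118 CPM in Cre-negative libraries and at 148 to 173 CPM in wild-type libraries. The library cre_negative_819 stood apart in red cell genes: the 15 erythroid markers summed to 4430 CPM there, with Car1 at 1442 CPM. The same 15 markers summed to 959 to 1140 CPM in mutant libraries, 1173 CPM in cre_negative_780 and 912 to 1210 CPM in wild-type libraries. Mast cell and basophil markers summed to 284 CPM in cre_negative_819 and to 86.0 to 134 CPM in the other 8 libraries. Not all of these markers followed the sum. Il1rl1 (106 CPM), Cpa3 (74.2 CPM) and Ms4a2 (12.9 CPM) were highest in cre_negative_819. Hdc and Prss34 stood at 28.5 and 14.5 CPM there, below the 31.5 and 21.8 CPM of cre_negative_780. LSK and stem cell markers summed to 2243 CPM in cre_negative_819 and to 2832 to 3433 CPM in the other 8. Neutrophil markers summed to 1186 to 1567 CPM in mutant libraries, to 1727 CPM in cre_negative_780 and 996 CPM in cre_negative_819, and to 697 to 1159.8 CPM in wild-type libraries, so each mutant library lay above each wild-type one. The part of these other cells in the mitochondrial levels was not tested. None of the 8 marker lists had a gene at 0 in all libraries. Whatever differs between bulk libraries, fewer cells of a type and less RNA per cell cannot be told apart.

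The levels of the protein genes changed sharply between neighbouring genes at 2 places on the mitochondrial genome, and the annotation places a near-identical copy of the stretch between them on a nuclear chromosome. In the GENCODE M21 annotation of GRCm38, 7 unprocessed pseudogenes on the minus strand of chromosome 1 (24611535 to 24616188) matched the mitochondrial stretch from position 6390 to position 11042, which is 4653 bases. This span runs from inside mt-Co1 to inside mt-Nd4 and holds 11 genes whole, namely mt-Co2, mt-Atp8, mt-Atp6, mt-Co3, mt-Nd3, mt-Nd4l and 5 tRNA genes. The pseudogenes keep the order and, to within 1 base, the spacing of the mitochondrial genes. The bases between them, which include the first part of mt-Atp8 and the 5 tRNA genes, were not compared. The ends of the copy are shown here because they bound the stretch whose genes were barely counted, with the bases shared by the copy in capitals. The first is mt-Co1 at chrM:6360-6419 on the plus strand and the second mt-Nd4 at chrM:11013-11072 on the plus strand.
mt-Co1: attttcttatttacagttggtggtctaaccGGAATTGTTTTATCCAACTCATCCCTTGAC
mt-Nd4: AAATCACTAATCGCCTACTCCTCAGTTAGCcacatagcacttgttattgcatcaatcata

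Within the span the copy hardly differs from the mitochondrial gene. Gm28661 matched mt-Co2 over 681 of its 684 bases, Gm10925 matched mt-Atp6 over 678 of 681 and Gm28437 matched mt-Co3 over 783 of 784, each with 100% identity. Gm28438 matched 344 of 345 aligned bases of mt-Nd3, and its 1 substitution was T3C, counted from the first base of mt-Nd3. The start of both is printed with that base in capitals (mt-Nd3 at chrM:9459-9491, plus strand, and Gm28438 at chr1:24613087-24613119, minus strand), because it is the only aligned base at which they differ.
mt-Nd3: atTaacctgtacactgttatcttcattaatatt
Gm28438: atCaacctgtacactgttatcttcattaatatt

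Each protein gene wholly inside this span was counted at trace level, and each of the others was abundant. Averaged over the 9 libraries and scaled per kilobase of gene, the 6 inside stood at 2.49 CPM per kb for mt-Co3, 1.41 for mt-Atp6, 1.40 for mt-Co2, 0.831 for mt-Nd3, 0.573 for mt-Atp8 and 0.0835 for mt-Nd4l. Among the 7 protein genes that lie partly or wholly outside, the lowest was mt-Nd6 at 99.97 CPM per kb and the highest mt-Co1 at 4549 CPM per kb. The libraries' values left this gap empty: libraries reached at most 3.03 CPM per kb for a gene inside the span, and none was under 69.7 CPM per kb for a protein gene partly or wholly outside it. Reads that did not align to a single place made up 21.6% to 28.3% of all reads in the table. They are not broken down by gene, so the part of the copy in these low counts was not tested. Of the 7 copy genes only Gm10222, the copy of mt-Nd4l, is a row of the count table, and it held 0 to 0.341 CPM. The levels of the 6 genes inside the span are therefore uncertain as measures of their RNA, as are those of mt-Co1 and mt-Nd4 to a lesser degree.

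**Figure D1:**
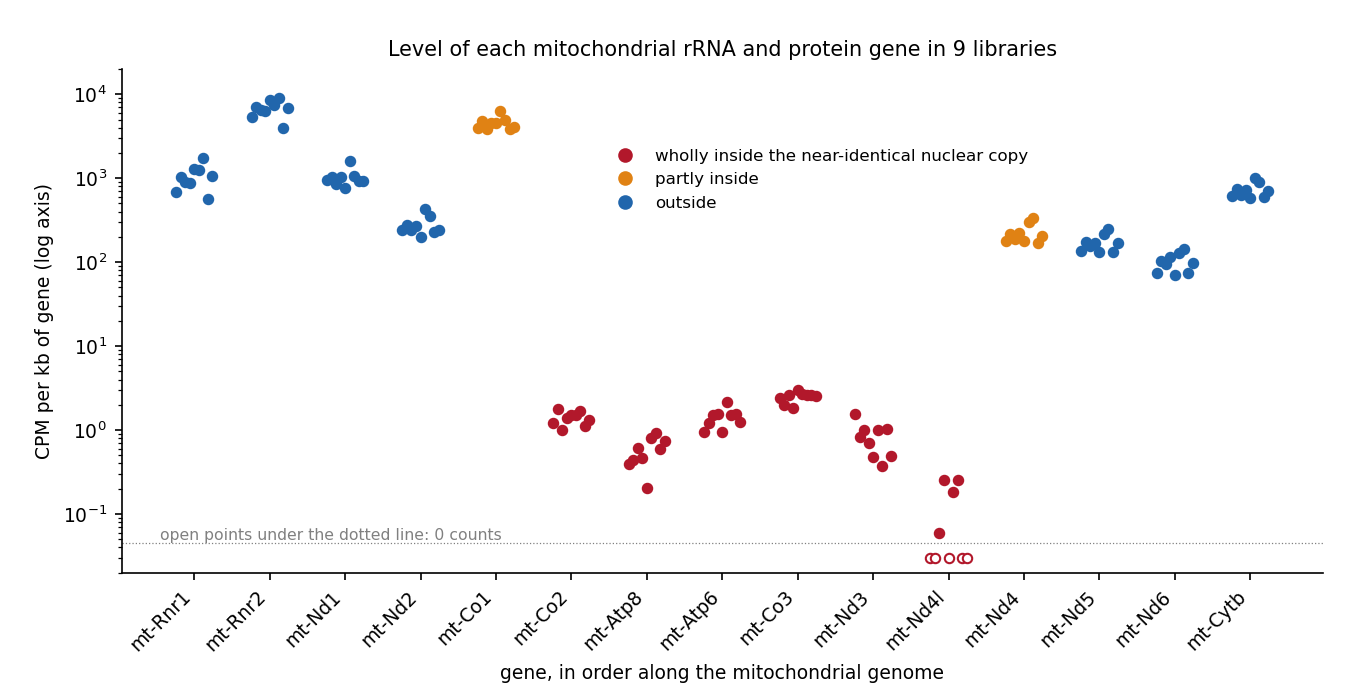
Level of the 2 rRNA and 13 protein genes in order along the mitochondrial genome, in CPM per kb on a log axis, with 1 point per library (9 per gene, mutant, Cre-negative and wild type drawn left to right). The 6 genes wholly inside the span of the near-identical nuclear copy (red) all lie at or under 3.03 CPM per kb, whereas the genes partly inside (orange) or outside (blue) lie above 69 CPM per kb. Of mt-Atp8, only the last 43 bases were matched to the copy. Open points mark libraries with 0 counts.

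Among the genes not wholly inside the span, the order of levels per kilobase began with the large-subunit rRNA mt-Rnr2 (6791 CPM per kb, 3999 to 9105 over libraries) and mt-Co1, the catalytic subunit of complex IV (4549, 3869 to 6338), whose ranges overlapped. The library kit removes rRNA, so the places of mt-Rnr2 and mt-Rnr1 in this order hold only for the RNA left after removal. If all counts of mt-Co1 came from the 1062 bases that the near-identical copy lacks, its level would be 6618 CPM per kb; where in the gene they fell is not in the table. The small-subunit rRNA mt-Rnr1 (1045 CPM per kb, 559 to 1760), the complex I subunit mt-Nd1 (1019, 767 to 1601) and cytochrome b of complex III, mt-Cytb (724, 585 to 1017), followed below a gap and overlapped one another. The complex I subunits mt-Nd2 (276 CPM per kb, 198 to 425), mt-Nd4 (222, 170 to 337) and mt-Nd5 (170, 131 to 252) came next, separate from mt-Cytb over their full lengths and overlapping one another. On the same assumption, with 502 bases outside the copy, mt-Nd4 would stand at 609 CPM per kb (467 to 926) and overlap mt-Cytb. mt-Nd6, the complex I subunit encoded on the other strand, was the lowest at 99.97 CPM per kb (69.7 to 143), and its range overlapped that of mt-Nd5. Neighbouring genes overlap by 43 bases (mt-Atp8 and mt-Atp6), 7 bases (mt-Nd4l and mt-Nd4) and 14 bases (mt-Nd5 and mt-Nd6). The sources used here do not say whether reads were counted by strand, so reads of mt-Nd6 and reads from its antisense strand cannot be told apart.

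The mitochondrial genes took 1.43% to 2.78% of all gene counts, and the mutant libraries lay within the range of the wild-type ones. The share was 1.74%, 2.29%, 2.06% and 2.16% in mutant_824, mutant_827, mutant_829 and mutant_830, 2.35% and 2.50% in cre_negative_780 and cre_negative_819, and 1.43% to 2.78% over the 3 wild-type libraries. The group values were 2.06% ± 0.234 for mutant (SD, n = 4), 2.43% ± 0.107 for Cre-negative (SD, n = 2) and 2.10% ± 0.679 for wild type (SD, n = 3). The 95% Wilson intervals, which cover counting error only, were narrower than 0.01 percentage points, so the spread lay between libraries and not in counting. The wild-type range enclosed the other 6 shares. Reads that fell in no annotated feature made up 13.6% to 19.4% of all reads in mutant libraries, 18.2% and 17.8% in Cre-negative libraries and 13.7% to 23.1% in wild-type libraries. The part of those reads in the mitochondrial share was not tested.

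The rRNA and protein classes did not keep a fixed ratio. Although the library kit removes rRNA, the 2 rRNA genes still held 0.644% to 1.65% of gene counts, and the 13 protein genes held 0.781% to 1.29%. The rRNA counts over the protein-gene counts were 1.06, 1.20, 1.33 and 1.09 in mutant_824, mutant_827, mutant_829 and mutant_830. They were 1.60 and 0.937 in cre_negative_780 and cre_negative_819, and 0.825 to 1.47 over the 3 wild-type libraries. The Cre-negative and wild-type groups each held libraries on both sides of 1, whereas the 4 mutant libraries lay between 1.06 and 1.33. How completely the kit removed rRNA from each library was not measured, so more rRNA in the cells and less removal cannot be told apart. All 22 tRNA genes together held 0.000897% to 0.00230% of gene counts.

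**Figure D2:**
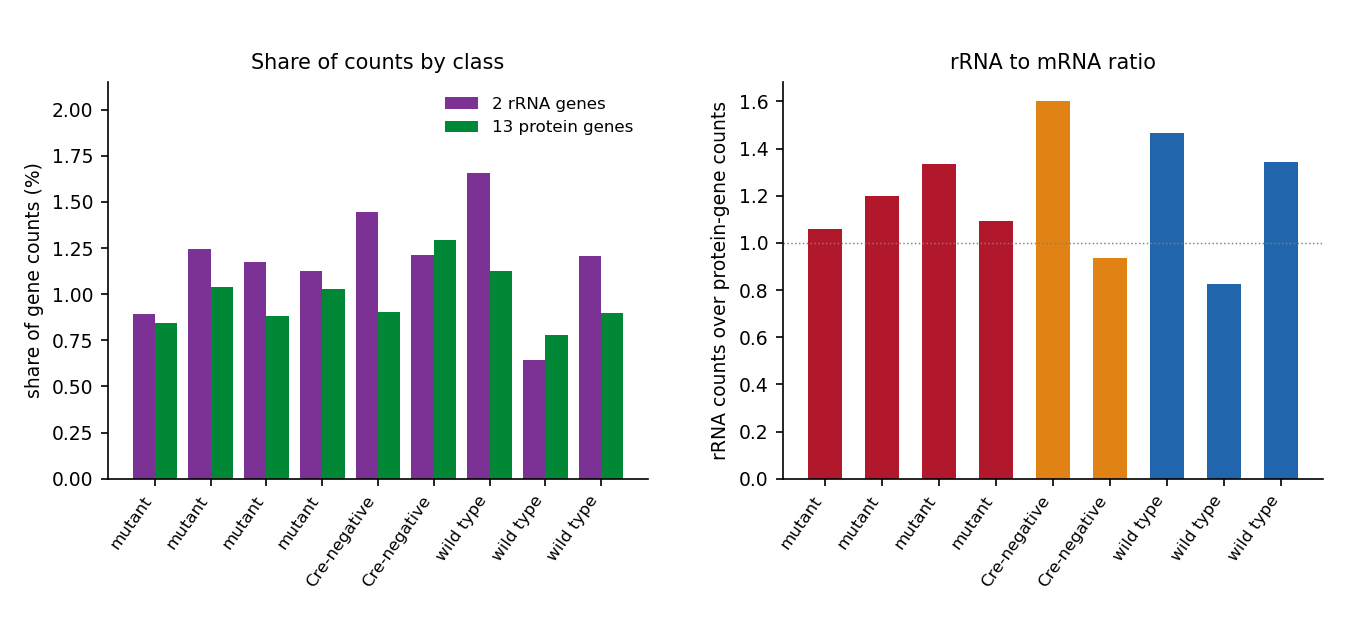
Left, share of gene counts (%) held by the 2 rRNA genes and the 13 protein genes in each library. Right, rRNA counts over protein-gene counts by library, with a dotted line at 1. The 4 mutant libraries lie above that line, between 1.06 and 1.33, and cre_negative_819 (0.937) lies under it.

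Of the 37 genes, 16 had enough counts to be tested: 11 protein genes, both rRNAs and 3 tRNAs. The remaining 21 were mt-Atp8, mt-Nd4l and 19 tRNA genes, of which 13 had no count in any library. Differences were tested with the quasi-likelihood test of edgeR over 18576 genes, with p-values adjusted over all of them by Benjamini-Hochberg at 0.05.

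In mutant LSK cells the mitochondrial genes stood close to wild type. edgeR called 0 of the 16 genes, where it called 0% of all genes tested. Of the 16, 0 had an unadjusted p under 0.05, and limma-voom and DESeq2 also called 0 of them. Over all genes, edgeR called 0 with 589 at an unadjusted p under 0.05, limma-voom called 13 and DESeq2 called 38. The log2 fold changes ran from -0.66 (mt-Tc) to 0.69 (mt-Nd3), with 4 above 0 and 12 below, a median of -0.11 against -0.02 over all genes tested, and edgeR adjusted p-values of at least 0.998. The mutant and wild-type libraries overlapped for each of the 16 genes. By comparison, 4.17% of all genes tested were higher and 4.15% lower in every mutant library than in every wild-type library. The standard errors of 0.17 for mt-Co1 to 0.75 for mt-Tt set what could be seen. The 95% interval of mt-Co1 ran from -0.37 to 0.37 on the log2 scale, and that of mt-Rnr1 from -1.04 to 0.30.

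For most of the 16 genes the fold change of Cre-negative against wild type was above 0, none passed the test, and the 2 Cre-negative libraries parted. cre_negative_780 was the lowest of all 9 libraries for 5 of the 9 rRNA and protein genes that averaged 10 CPM or more, and without cre_negative_819 the median of the 16 turned negative. edgeR called 0 of the 16 genes, where it called 0% of all genes tested. Again 0 of the 16 had an unadjusted p under 0.05, and limma-voom and DESeq2 called 0 of them. Over all genes, edgeR called 0 with 972 at an unadjusted p under 0.05, limma-voom called 0 and DESeq2 called 56. The log2 fold changes of 14 genes were above 0 and those of 2, mt-Nd5 and mt-Nd6, below, with a median of 0.16 against 0.02 over all genes tested. Both Cre-negative libraries lay above all wild-type libraries for mt-Co3 and mt-Tt, which is 2 of 16, where 6.25% of all genes tested did so. None of the 16 lay below, against 5.12% of all genes tested.

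The fold changes of mutant against Cre-negative were mostly below 0, again without passing the test, and the sign of their median rested on cre_negative_819. All 4 mutant libraries lay above cre_negative_780 for mt-Nd1, mt-Nd2, mt-Nd4, mt-Nd5, mt-Nd6 and mt-Cytb, and without cre_negative_819 the median of the 16 turned positive. Single genes parted in that fit. The log2 fold changes of mt-Nd1 (0.38), mt-Nd6 (0.50) and mt-Tp (0.27) turned positive. Those of mt-Rnr1 (-0.52), mt-Rnr2 (-0.39), mt-Co3 (-0.43), mt-Tt (-1.09), mt-Tc (-0.14) and mt-Co1 (-0.036) stayed below 0. edgeR called 0 of the 16 genes and 0% of all genes tested. With 0 of the 16 at an unadjusted p under 0.05, the smallest edgeR p was 0.0641 for mt-Tp (adjusted p = 0.912), and limma-voom and DESeq2 called 0 of them. Over all genes, edgeR called 0 with 978 at an unadjusted p under 0.05, limma-voom called 0 and DESeq2 called 27. The log2 fold changes of 15 genes were below 0 and that of mt-Nd3 above, with a median of -0.28 against -0.03 over all genes tested. All mutant libraries lay below both Cre-negative libraries for mt-Rnr1, mt-Rnr2, mt-Co3 and mt-Tt, which is 4 of 16, where 7.27% of all genes tested did so. None lay above, against 5.09% of all genes tested. The 3 comparisons share their libraries, so their directions are not separate evidence, and with 2 Cre-negative libraries each of these values rests on few samples.

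**Figure D3:**
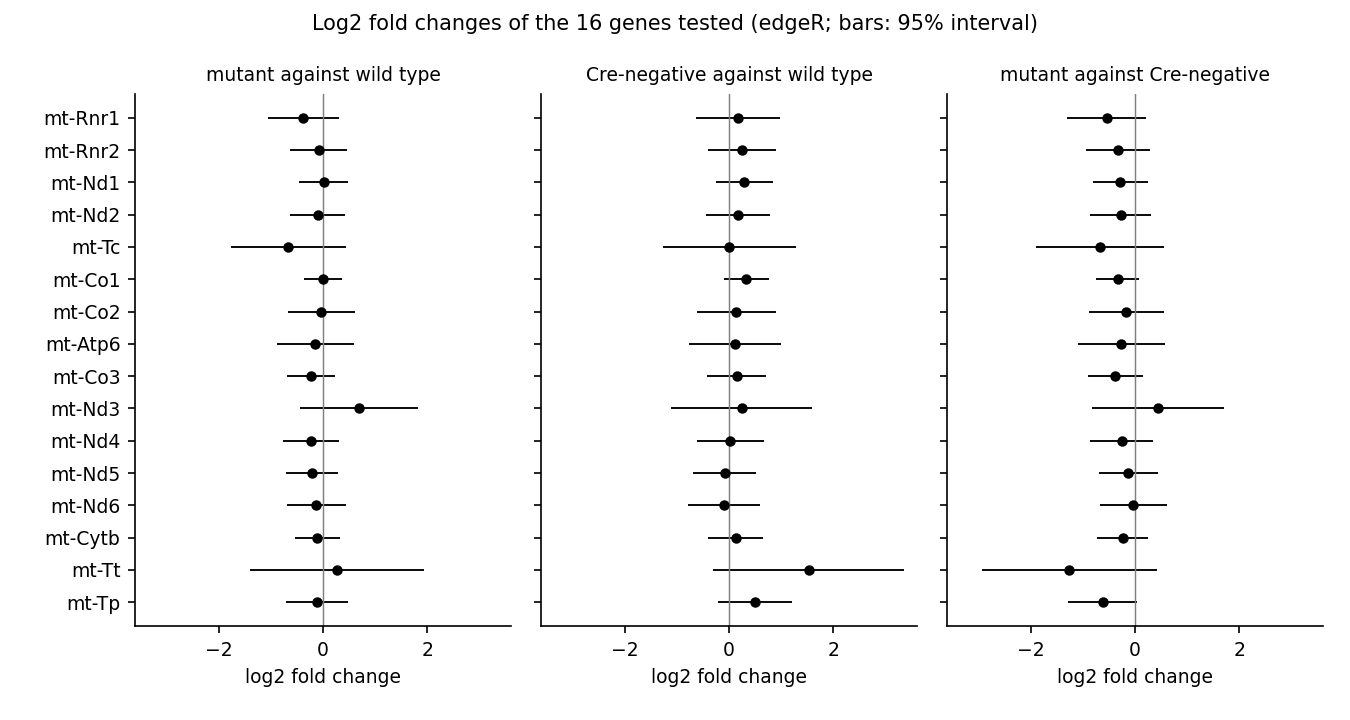
Log2 fold changes of the 16 tested mitochondrial genes in the 3 comparisons, in order along the genome, with edgeR 95% intervals as bars. Each interval includes 0, and those of the sparsely counted mt-Tc, mt-Nd3 and mt-Tt are the widest.

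The medians involving the Cre-negative group turned on which of its libraries was used. Without cre_negative_819 the median of the 16 was -0.37 against wild type and that of mutant against Cre-negative was 0.25. Without cre_negative_780 these medians were 0.33 and -0.53, and edgeR then called the same 2 of the 16 in each comparison, mt-Nd1 and mt-Tp. mt-Nd1 was higher in cre_negative_819 than in wild type by 0.70 on the log2 scale (edgeR adjusted p = 0.0373, range 0.0373 to 1 over 19 alternatives) and mt-Tp by 1.003 (adjusted p = 0.0197, range 0.0197 to 1). Mutant against cre_negative_819 gave -0.67 for mt-Nd1 (edgeR adjusted p = 0.0212, range 0.0212 to 1) and -1.10 for mt-Tp (adjusted p = 0.00702, range 0.00702 to 1). The lone library is there assumed to vary like those of the other groups. Over all genes tested, the same omission gave 650 calls for Cre-negative against wild type, and 1835 calls for mutant against Cre-negative. cre_negative_819 is the library with 4430 CPM of erythroid markers, and the part of those cells in its mitochondrial levels was not tested. Leaving out each library in turn, the median of mutant against wild type ran from -0.18 to 0.11, with 0 of the 16 called by edgeR each time.

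The rRNA genes varied more between wild-type libraries than between groups. mt-Rnr1 (ENSMUSG00000064337, chrM, 70 to 1024, plus strand) stood at 653, 980, 851 and 844 CPM in mutant_824, mutant_827, mutant_829 and mutant_830, at 1216 and 1208 CPM in cre_negative_780 and cre_negative_819, and at 534 to 1681 CPM over the 3 wild-type libraries. The wild-type range enclosed all 6 other libraries. Its mean was 832 ± 135 CPM in mutant (SD, n = 4), 1212 ± 6.22 CPM in Cre-negative (SD, n = 2) and 1077 ± 576 CPM in wild type (SD, n = 3). mt-Rnr2 (1094 to 2675, plus strand) stood at 8375, 11311, 10299 and 9914 CPM in the mutant libraries in the same order, at 13344 and 11736 CPM in the Cre-negative ones and at 6327 to 14404 CPM in the wild-type ones. Here too the wild-type range enclosed all other libraries. The edgeR log2 fold change of mutant against wild type was -0.37 ± 0.30 for mt-Rnr1 and -0.08 ± 0.24 for mt-Rnr2 (SE; adjusted p = 0.998 for each). Leaving out each library in turn, these ran from -0.69 to 0.12 and from -0.34 to 0.23. Counts of mt-Rnr2 over those of mt-Rnr1 ran from 8.57 to 12.8, the highest being mutant_824, a 1.497-fold range. How completely the kit removed each rRNA was not measured, so this ratio may differ from that in the cells.

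Among complex I genes, mt-Nd1 (2751 to 3707, plus strand) stood at 923, 987, 826 and 996 CPM in mutant_824, mutant_827, mutant_829 and mutant_830, at 734 and 1533 CPM in cre_negative_780 and cre_negative_819, and at 883 to 1007 CPM over the 3 wild-type libraries. The lowest and the highest of the 9 libraries were thus the Cre-negative pair, and the other 7 lay between 826 and 1007 CPM. Its means were 933 ± 78.2 CPM in mutant (SD, n = 4), 1133 ± 565 CPM in Cre-negative (SD, n = 2) and 926 ± 70.7 CPM in wild type (SD, n = 3). Mutant against wild type gave an edgeR log2 fold change of 0.01 ± 0.21 (SE, adjusted p = 0.999). mt-Nd2 averaged 267 ± 20.8 CPM in mutant, 323 ± 166 CPM in Cre-negative and 287 ± 69.7 CPM in wild type (SD, n = 4, 2 and 3). Its libraries were again extreme in the Cre-negative pair, with 206 CPM in cre_negative_780 and 441 CPM in cre_negative_819.

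The neighbours mt-Nd4 and mt-Nd5 kept nearly the same ratio in every library. mt-Nd4 averaged 278 ± 29.5 CPM in mutant, 332 ± 123 CPM in Cre-negative and 326 ± 122 CPM in wild type (SD, n = 4, 2 and 3). mt-Nd5 averaged 288 ± 30.4 CPM in mutant, 316 ± 108 CPM in Cre-negative and 335 ± 112 CPM in wild type (SD, n = 4, 2 and 3). Counts of mt-Nd4 over those of mt-Nd5 lay between 0.911 and 1.07 in the 9 libraries, a 1.17-fold range, whereas each gene alone spanned 1.98-fold and 1.92-fold. This was the narrowest of the 36 ratios between the 9 abundant genes, and part of mt-Nd4 lies inside the nuclear copy.

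mt-Nd6 (13552 to 14070, minus strand) is the only protein gene on its strand. It stood at 38.2, 53.3, 48.9 and 60.0 CPM in mutant_824, mutant_827, mutant_829 and mutant_830, at 36.2 and 66.3 CPM in cre_negative_780 and cre_negative_819, and at 38.4 to 74.5 CPM over the 3 wild-type libraries. All groups overlapped, with means of 50.1 ± 9.15 CPM in mutant (SD, n = 4), 51.2 ± 21.3 CPM in Cre-negative (SD, n = 2) and 54.7 ± 18.3 CPM in wild type (SD, n = 3). The edgeR log2 fold changes were -0.13 ± 0.26 for mutant against wild type, -0.03 ± 0.29 for mutant against Cre-negative and -0.09 ± 0.31 for Cre-negative against wild type (SE, adjusted p at least 0.996). Counts of mt-Nd6 over those of mt-Nd5 lay between 0.151 in cre_negative_780 and 0.195 in mutant_830, a 1.29-fold range over the 9 libraries. The ratio to mt-Nd1 spanned 1.79-fold and that to mt-Co1 1.89-fold, the widest between 2 of the 7 protein genes not wholly inside the span of the copy. As reads of mt-Nd6 and of the strand opposite it cannot be told apart, the part of the opposite strand in these ratios was not tested.

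In complexes III and IV, mt-Cytb averaged 778 ± 75.7 CPM in mutant, 916 ± 349 CPM in Cre-negative and 837 ± 176 CPM in wild type (SD, n = 4, 2 and 3). mt-Co1 (5328 to 6872, plus strand) had the highest level per kilobase of the 7 protein genes not wholly inside the span, and stood at 6116, 7453, 5978 and 7037 CPM in mutant_824, mutant_827, mutant_829 and mutant_830, 6955 and 9793 CPM in cre_negative_780 and cre_negative_819, and 5993 to 7566 CPM over the 3 wild-type libraries. cre_negative_819 alone exceeded 7566 CPM, and the other 8 libraries spanned 5978 to 7566 CPM. Its means were 6646 ± 715 CPM in mutant (SD, n = 4), 8374 ± 2007 CPM in Cre-negative (SD, n = 2) and 6642 ± 822 CPM in wild type (SD, n = 3). The edgeR log2 fold change was 0.00095 ± 0.17 for mutant against wild type (SE, adjusted p = 0.9996) and -0.33 ± 0.19 for mutant against Cre-negative (SE, adjusted p = 0.917).

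**Figure D4:**
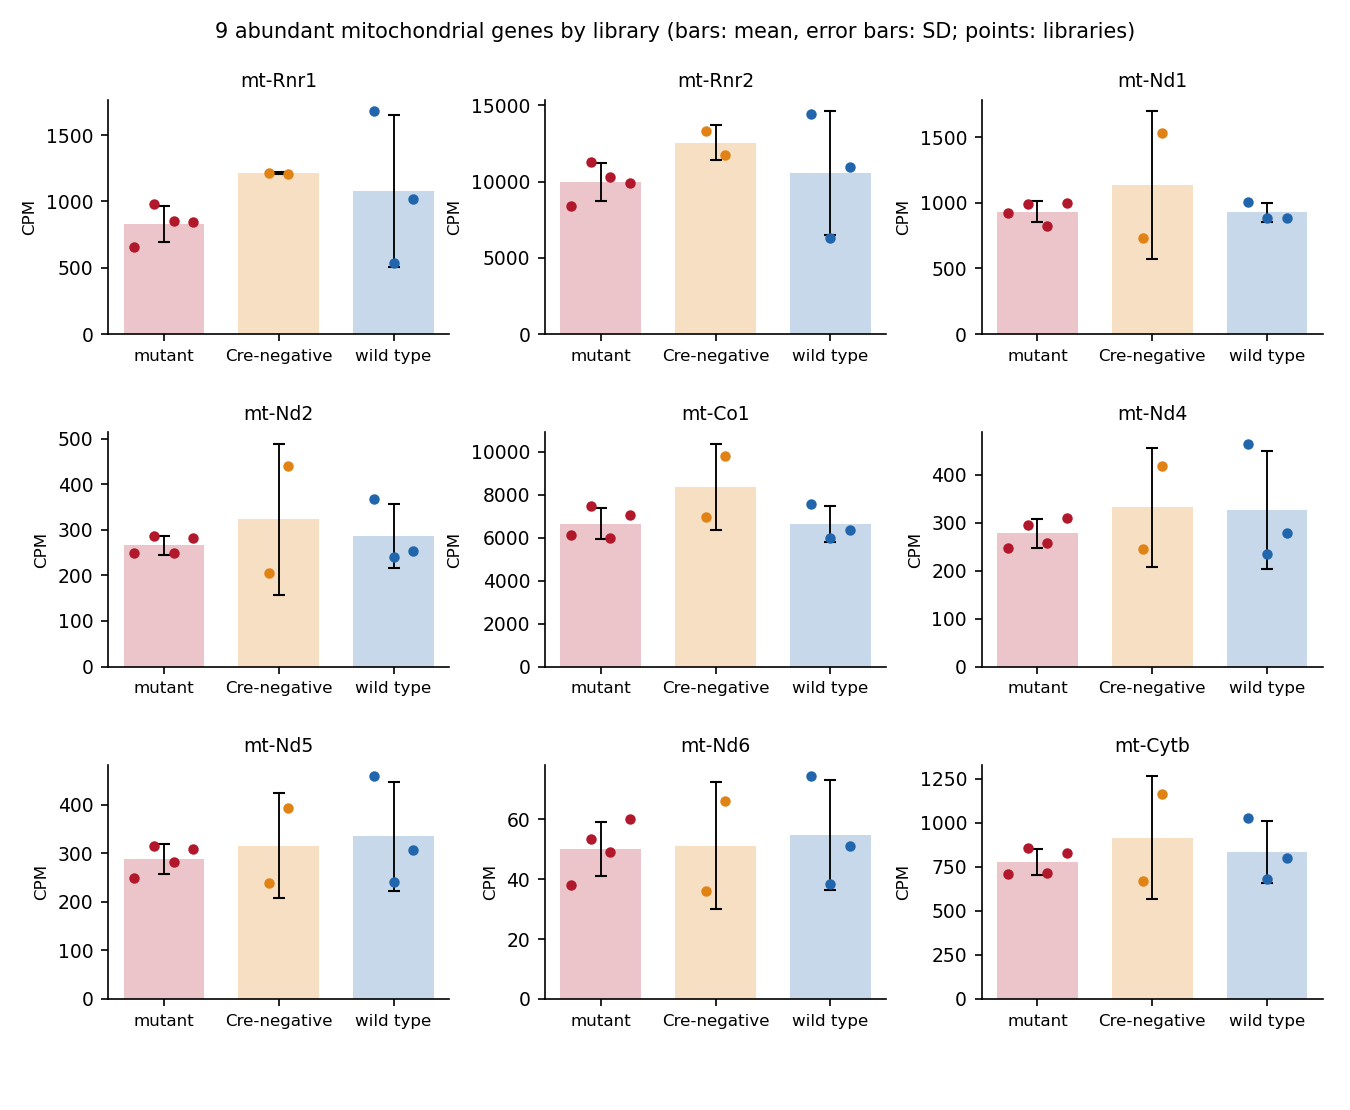
CPM of the 9 abundant mitochondrial genes in mutant, Cre-negative and wild-type libraries, with bars for the mean, error bars for the SD (n = 4, 2 and 3) and 1 point per library. The mutant libraries overlap the wild-type ones in each.

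Taking these 9 genes library by library, cre_negative_819 was the highest for 4 of them. cre_negative_780 was the lowest for 5 and mutant_829 for 1. Among others, mutant_827, mutant_830 and cre_negative_819 had all 7 protein genes above their medians over the 9 libraries. cre_negative_780 had 0 of the 7 above the median but both rRNAs, with a median deviation of -0.30 on the log2 scale for the proteins and 0.30 for the rRNAs. The 2 classes thus parted in that library. Over all pairs, ratios between 2 protein genes spanned 1.17-fold to 1.89-fold over libraries, and ratios between an rRNA and a protein gene spanned 1.82-fold to 2.77-fold. These genes share libraries and precursors, and the ranges are given as a description.

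The protein genes inside the span of the nuclear copy gave 12 to 921 counts each over all 9 libraries. mt-Co3, a core subunit of complex IV (8607 to 9390, plus strand), stood at 1.88, 1.55, 2.07 and 1.44 CPM in mutant_824, mutant_827, mutant_829 and mutant_830, at 2.38 and 2.13 CPM in cre_negative_780 and cre_negative_819, and at 2.01 to 2.07 CPM over the 3 wild-type libraries. The mutant libraries lay below both Cre-negative ones and overlapped wild type. Its edgeR log2 fold change was -0.38 ± 0.24 against Cre-negative (SE, adjusted p = 0.948) and -0.23 ± 0.21 against wild type (SE, adjusted p = 0.998).

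mt-Nd3, a complex I subunit (9459 to 9806, plus strand), had the highest log2 fold change of mutant against wild type, 0.69 ± 0.51 (SE, edgeR adjusted p = 0.998). It rested on 7 to 27 counts per library. Its level was 0.539, 0.286, 0.353 and 0.247 CPM in mutant_824, mutant_827, mutant_829 and mutant_830, 0.168 and 0.348 CPM in cre_negative_780 and cre_negative_819, and 0.130 to 0.361 CPM over the 3 wild-type libraries, with overlap between all groups.

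mt-Co2, which carries electrons into complex IV, averaged 0.923 ± 0.222 CPM in mutant, 1.04 ± 0.00885 CPM in Cre-negative and 0.942 ± 0.198 CPM in wild type (SD, n = 4, 2 and 3). mt-Atp6, the proton channel subunit of ATP synthase, averaged 0.892 ± 0.201 CPM in mutant, 1.07 ± 0.588 CPM in Cre-negative and 0.986 ± 0.117 CPM in wild type (SD, n = 4, 2 and 3). The groups overlapped for both genes.

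The other ATP synthase gene, mt-Atp8 (7766 to 7969, plus strand), reads through the start of mt-Atp6, as the stretch at chrM:7912-7984 (plus strand) shows with the shared bases in capitals.
mt-Atp8 and mt-Atp6: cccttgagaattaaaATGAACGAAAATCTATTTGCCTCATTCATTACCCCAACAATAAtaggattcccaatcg

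mt-Atp8 stood at 0.0799, 0.0893, 0.124 and 0.0950 CPM in mutant_824, mutant_827, mutant_829 and mutant_830, at 0.0421 and 0.165 CPM in cre_negative_780 and cre_negative_819, and at 0.120 to 0.186 CPM over the 3 wild-type libraries. These are 2 to 10 counts per library, too few for the test. mt-Nd4l, a complex I subunit (9877 to 10173, plus strand), had 0, 0, 1 and 4 counts in mutant_824, mutant_827, mutant_829 and mutant_830, 0 and 3 in cre_negative_780 and cre_negative_819, and 0 to 4 over the 3 wild-type libraries. It was thus at 0 in 5 of the 9 libraries, which allows up to 3 counts in each.

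The tRNA genes, of 59 to 75 bases each, were nearly absent apart from mt-Tp, the proline tRNA (15356 to 15422, minus strand) and the first gene of the light-strand transcript. It is printed because it was the tRNA with the most counts, with its anticodon in capitals (chrM:15356-15422, minus strand).
mt-Tp: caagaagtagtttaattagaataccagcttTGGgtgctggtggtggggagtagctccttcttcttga

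mt-Tp stood at 8.75, 11.02, 11.3 and 11.7 CPM in mutant_824, mutant_827, mutant_829 and mutant_830, at 9.08 and 23.7 CPM in cre_negative_780 and cre_negative_819, and at 10.9 to 12.6 CPM over the 3 wild-type libraries. cre_negative_819 stood alone above the other 8 libraries, which spanned 8.75 to 12.6 CPM. The group means were 10.7 ± 1.33 CPM in mutant (SD, n = 4), 16.4 ± 10.4 CPM in Cre-negative (SD, n = 2) and 11.6 ± 0.915 CPM in wild type (SD, n = 3). In edgeR the log2 fold change was -0.62 ± 0.30 for mutant against Cre-negative (SE, adjusted p = 0.912) and -0.12 ± 0.27 for mutant against wild type (SE, adjusted p = 0.998). Per kilobase it stood at 183 CPM, above the 99.97 CPM of mt-Nd6, which lies on the same strand.

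mt-Tc, the cysteine tRNA (5192 to 5257, minus strand), stood at 0.200, 0.214, 0.141 and 0.342 CPM in mutant_824, mutant_827, mutant_829 and mutant_830, at 0.253 and 0.458 CPM in cre_negative_780 and cre_negative_819, and at 0.205 to 0.582 CPM over the 3 wild-type libraries. These are 8 to 29 counts per library, and the groups overlapped. The edgeR log2 fold change of mutant against wild type, -0.66 ± 0.49, was the lowest of the 16 (SE, adjusted p = 0.998).

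mt-Tt, the threonine tRNA next to mt-Tp on the plus strand (15289 to 15355), had 1, 8, 5 and 13 counts in mutant_824, mutant_827, mutant_829 and mutant_830, 13 and 18 in cre_negative_780 and cre_negative_819, and 2 to 9 over the 3 wild-type libraries. In CPM this was 0.0200, 0.143, 0.0883 and 0.247 in mutant, 0.274 and 0.330 in Cre-negative and 0.0372 to 0.181 in wild type. Both Cre-negative libraries lay above the other 7. The log2 fold change of Cre-negative against wild type, 1.53 ± 0.82, was the largest in any comparison and did not pass the test (SE, edgeR adjusted p = 0.9998). Of the 19 tRNA genes too sparse to test, mt-Ts1 had the most counts, 17 over all 9 libraries.

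The nuclear partners of these genes gave no calls either. Of the nuclear subunits of the same complexes, 72 were tested: 36 of complex I, 9 of complex III, 11 of complex IV and 16 of ATP synthase. edgeR called 0 of the 72 in each comparison, where it called 0% of all genes tested, and 0 of the 72 had an unadjusted p under 0.05. Their median log2 fold changes of mutant against wild type were -0.08, -0.09, -0.13 and -0.14 in that order, against -0.02 over all genes tested. Ndufb2, a complex I subunit, had the lowest p among them at 0.112 in edgeR (adjusted p = 0.998), with 39.4 ± 1.87 CPM in mutant (SD, n = 4) and 47.0 ± 4.77 CPM in wild type (SD, n = 3).

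The 72 nuclear genes held 0.766% to 0.859% of gene counts in mutant libraries, 0.691% and 0.890% in Cre-negative libraries and 0.696% to 0.935% in wild-type libraries. Counts of the 13 mitochondrial protein genes over those of the 72 nuclear ones were 0.984, 1.297, 1.15 and 1.33 in mutant_824, mutant_827, mutant_829 and mutant_830, 1.31 and 1.45 in cre_negative_780 and cre_negative_819, and 0.835 to 1.62 over the 3 wild-type libraries. The mutant libraries lay inside the wild-type range. As 6 of the 13 genes were barely counted, the ratio rests on the other 7, and the part of the nuclear copy in it was not tested.

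The nuclear genes that copy, transcribe and process mitochondrial DNA and RNA were likewise not called. edgeR called 0 of 11 transcription genes, 0 of 22 RNA processing and stability genes, 0 of 21 tRNA and rRNA modification genes and 0 of 13 replication and nucleotide supply genes in each comparison. It called 0% of all genes tested in each comparison too, so the lack of calls does not set these lists apart. Among these 4 lists 1 gene had an unadjusted p under 0.05 in any comparison. This was Osgepl1, which makes a tRNA modification, with 18.1 ± 0.294 CPM in mutant (SD, n = 4) and 22.9 ± 4.07 CPM in Cre-negative (SD, n = 2) and an edgeR log2 fold change of -0.34 ± 0.13 (SE, adjusted p = 0.889). Of the 22 processing genes, 20 had a log2 fold change below 0 for mutant against Cre-negative and 2 above, where 44.2% of all genes tested were above 0. Their median was -0.12 against -0.03 over all genes tested. The 22 genes summed to 1354 to 1453 CPM in mutant libraries, between the 1286 CPM of cre_negative_780 and the 1810 CPM of cre_negative_819. Trmt10c, a subunit of the nuclease that cuts tRNA 5′ ends, stood at 62.5 ± 2.10 CPM in mutant (SD, n = 4) and 77.0 ± 19.1 CPM in Cre-negative (SD, n = 2), and its edgeR log2 fold change was -0.30 ± 0.14 (SE, adjusted p = 0.912). Its Cre-negative spread came from the same pair, with 63.5 CPM in cre_negative_780 and 90.6 CPM in cre_negative_819.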

How the data were processed

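The labels' protocols describe stranded total RNA libraries with rRNA removal. The authors deposited raw counts per Ensembl gene, and the submitters' processing notes list STAR, HTSeq 0.5.3p3 and DESeq2 with the build mm10 (GRCm38). Annotation release, strand setting and read filters were not given in the sources used here. The 5 rows without a gene, 40.5% to 47.3% of all reads, stayed out of library sizes and tests. A deposited scaled table was not used, because each of its columns is a raw count column times a constant.

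Genes were kept by filterByExpr (18576), scaled by TMM and tested with the two-sided quasi-likelihood test of edgeR 4.0.16 on all 9 libraries with 1 mean per group, after a check on simulated data. Standard errors are the log2 fold change over the square root of F. limma 3.58.1 (voom with quality weights) and DESeq2 1.42.0 in R 4.3.3 were alternatives, beside other scalings, filters and library sizes, sums with nuclear copies, and each library left out. Positions and sequences came from GENCODE M21, which matched 37693 of 39179 identifiers, and BLAST 2.17.0 found nuclear copies of at least 90% identity, called near-identical at 99%. No pair of libraries within a group agreed within sampling noise (smallest chi-square over its degrees of freedom 14.6).

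Members and gene lists were chosen with earlier results of these data known. Values by library, as a range for wild type, are given for the rRNAs, mt-Nd6, the protein genes with the 2 highest and 2 lowest counts per kilobase, the 3 tRNAs with most counts and up to 4 members with the lowest p per comparison. Up to 2 genes per list may be named by lowest p. Some values that this calls for are not reported here. Markers named beside a library were chosen after their values were seen.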

Additional observations from a re-analysis of the deposited data

How the results depend on the processing

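No paired analysis was possible because the library numbers in the titles differ between groups and the labels name no batch. For mutant against wild type, 0 mitochondrial genes were called under every alternative run, limma-voom and DESeq2 included, and with libraries left out the count ran from 0 to 2 in each comparison with the Cre-negative group, 2 being without cre_negative_780. Genes called overall ran from 0 to 650 for Cre-negative against wild type (62 without cre_negative_819) and from 0 to 1835 for mutant against Cre-negative (9 without cre_negative_819). limma-voom called 13 genes for mutant against wild type, and DESeq2 called 38 there, 27 for mutant against Cre-negative and 56 for Cre-negative against wild type. The median of members ran, leaving out libraries, from -0.18 to 0.11 for mutant against wild type, from -0.37 to 0.33 for Cre-negative against wild type and from -0.53 to 0.25 for mutant against Cre-negative. Over the 9 rRNA and protein genes of at least 10 CPM, chosen after seeing the data and with mt-Co1 and mt-Nd4 partly inside the copy, the medians were -0.11, 0.17 and -0.28. The mitochondrial share was 1.19%, 1.33% and 1.19% of all reads and 0.950%, 1.10% and 0.937% without rRNA genes in mutant, Cre-negative and wild type. Of 560 alternative values of single genes, 51 changed sign and 4 passed the threshold, all 4 without cre_negative_780. Leaving out libraries, mutant against wild type ran from -0.69 to 0.12 (mt-Rnr1), -0.34 to 0.23 (mt-Rnr2), -0.32 to 0.19 (mt-Nd6), -0.012 to 0.10 (mt-Nd1), -0.061 to 0.13 (mt-Co1) and -0.26 to 0.91 (mt-Tt). Cre-negative against wild type ran from -0.18 to 0.63 (mt-Rnr1), -0.047 to 0.52 (mt-Rnr2), -0.61 to 0.24 (mt-Nd6), -0.35 to 0.70 (mt-Nd1), -0.37 to 1.003 (mt-Tp), -0.39 to 0.75 (mt-Nd3) and -0.50 to 0.51 (mt-Tc). Mutant against Cre-negative ran from -0.35 to 0.50 (mt-Nd6), -0.67 to 0.38 (mt-Nd1) and -1.10 to 0.27 (mt-Tp). Sign also changed for mt-Tc of Cre-negative against wild type with RLE (-0.013), upper-quartile (-0.018), nuclear-gene (-0.017) and all-read (-0.091) scaling, no filter (-0.0041), only both groups (-0.00069) and DESeq2 (-0.013). It changed for mt-Nd6 of mutant against Cre-negative with upper-quartile (0.034), nuclear-gene (0.010) and all-read (0.13) scaling, only both groups (0.0096) and limma-voom (0.085), and of mutant against wild type with limma-voom (0.033). The causes were not tested. Depth limits mt-Nd3, mt-Tc and mt-Tt, with 1 to 29 counts per library, and the 21 genes too sparse to test.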

Other observations

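Nuclear copies less like the mitochondrial genes were counted as rows of their own. Gm13340 on chromosome 2 matches all 1545 bases of mt-Co1 at 97.6% identity and stood at 4.09, 4.95, 4.26 and 4.24 CPM in mutant_824, mutant_827, mutant_829 and mutant_830, at 4.02 and 5.59 CPM in cre_negative_780 and cre_negative_819, and at 3.93 to 4.51 CPM over the 3 wild-type libraries. cre_negative_819 was the highest of the 9, as it was for the share of gene counts held by the 13 mitochondrial protein genes, at 1.29%. Gm13341 on chromosome 2, which matches mt-Co2 at 95.9% identity, held 0.439 to 1.10 CPM, a level like the 0.689 to 1.21 CPM of mt-Co2 itself. The copies of mt-Nd5 (Gm4076 and Gm11407), mt-Nd6 (Gm11408) and mt-Cytb (Gm11410) each held at most 0.112 CPM in any library.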
